A study of Homo sapiens with 3 samples.

Results

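The zinc finger genes of chromosome 19 were taken as every RefSeq protein-coding gene on that chromosome whose symbol is ZNF followed by digits and an optional letter. The rule gave 246 genes out of the 19974 protein-coding genes of the autosomes and X (GRCh38.p14, the build hg38 of the files). ChIP-seq was done on untreated wild-type KBM7, a leukaemia line with a near-haploid karyotype and a BCR-ABL fusion, derived from chronic myeloid leukaemia. There were 3 libraries: H3K4me3, a histone methylation of promoters (Millipore antibody 07-473), H3K27ac, a histone acetylation of active promoters and enhancers (Abcam antibody ab4729), and an input without antibody. Each mark had 1 library, so no value has a replicate error and no comparison was tested. For the check of the labelled line, all 10 myeloid and progenitor genes examined, such as SPI1 and MPO, had both marks at an end. Of 6 genes of other tissues, such as ALB, 0 had either. Among all protein-coding genes 60.4% had both and 30.4% had neither, so this is a weak check.

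Most chromosome 19 ZNF genes encode arrays of C2H2 zinc fingers that bind DNA, usually joined to a KRAB domain. KRAB binds TRIM28, which brings the methyltransferase SETDB1 and leads to H3K9me3 over bound sites, many of them in transposable elements. The genes arose by repeated tandem duplication and lie in clusters on the chromosome, and several clusters carry H3K9me3 themselves in many cell types. H3K9me3 was not measured here.

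The promoters of the cluster that runs from ZNF101 to ZNF254 show how alike duplicated promoters with opposite states can be. The 120 bases just before the RefSeq start are given 5′ to 3′ for 7 genes. Capitals mark CCAAT, the letters bound by NF-Y, and the ETS core CCGGAAG, here on the other strand. ZNF93 (chr19:19900826-19900945, plus strand), ZNF90 (chr19:20077880-20077999, plus), ZNF714 (chr19:21082083-21082202, plus) and ZNF430 (chr19:21020537-21020656, plus) had neither mark. ZNF431 (chr19:21141920-21142039, plus), ZNF100 (chr19:21767580-21767699, minus) and ZNF91 (chr19:23395472-23395591, minus) had both.
ZNF93: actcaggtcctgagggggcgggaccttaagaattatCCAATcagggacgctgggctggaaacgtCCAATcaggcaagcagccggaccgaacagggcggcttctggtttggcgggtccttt
ZNF90: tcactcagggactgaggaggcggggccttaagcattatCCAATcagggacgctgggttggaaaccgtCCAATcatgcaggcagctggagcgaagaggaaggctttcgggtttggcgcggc
ZNF714: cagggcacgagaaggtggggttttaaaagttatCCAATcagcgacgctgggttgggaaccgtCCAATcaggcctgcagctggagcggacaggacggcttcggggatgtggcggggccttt
ZNF430: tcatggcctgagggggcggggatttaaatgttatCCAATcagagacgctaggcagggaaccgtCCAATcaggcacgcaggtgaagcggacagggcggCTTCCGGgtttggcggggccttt
ZNF431: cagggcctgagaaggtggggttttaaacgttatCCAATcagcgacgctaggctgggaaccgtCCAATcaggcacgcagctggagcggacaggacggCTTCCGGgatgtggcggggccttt
ZNF100: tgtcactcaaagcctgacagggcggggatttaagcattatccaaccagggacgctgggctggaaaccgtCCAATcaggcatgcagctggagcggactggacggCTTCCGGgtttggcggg
ZNF91: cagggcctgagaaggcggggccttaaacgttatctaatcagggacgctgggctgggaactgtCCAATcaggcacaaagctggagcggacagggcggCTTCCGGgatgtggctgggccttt

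Of the 246 genes, 160 had a peak of both marks within 1 kb of an end of the gene record. That is 65.0% (95% Wilson interval 58.9 to 70.7), beside 60.4% of all protein-coding genes. H3K4me3 lay at an end of 165 genes (67.1%, against 66.7% of all genes) and H3K27ac at an end of 161 (65.4%, against 63.2%). Neither mark was found at an end of 80 genes, 32.5% (26.97 to 38.60), beside 30.4% of all genes. The shares of the ZNF genes thus lay near those of all genes, and the intervals, which cover counting error only, included the value of all genes for each mark, for both and for neither. With only the stronger 50% of each list, or with only peaks whose summit lay in the window, the interval for both marks lay above the share of all genes (58.9 to 70.7 against 57.9%, and 55.99 to 68.0 against 55.2%). Single-mark genes were rare. H3K4me3 alone was found at 5 genes (2.03%, against 6.35% of all genes) and H3K27ac alone at ZNF844 (0.41%, against 2.84%).

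The gene record does not always begin at the promoter in use, so the RefSeq start site was examined as well. A start site was matched for 216 of the 246 genes. The 30 without a match were ZNF559, ZNF763, ZNF506, ZNF253, ZNF738, ZNF676, ZNF729, ZNF98, ZNF99, ZNF728, ZNF30, ZNF571, ZNF221, ZNF155, ZNF223, ZNF233, ZNF114, ZNF473, ZNF649, ZNF480, ZNF610, ZNF600, ZNF28, ZNF888, ZNF665, ZNF524, ZNF471, ZNF211, ZNF552 and ZNF417. Both marks lay within 1 kb of it in 157 genes, 72.7% (66.4 to 78.2), beside 61.4% of the 15812 protein-coding genes with a start site. At start sites the interval of the ZNF genes lay above the share of all genes. The other chromosome 19 genes had 62.7% (59.7 to 65.7), and ZNF genes of other chromosomes had 76.6% of 214. The start sites of 31 genes lay more than 1 kb inside the record. Of the 80 genes unmarked at the ends, 14 had both marks at an inner start site: ZNF558, ZNF563, ZNF442, ZNF799, ZNF599, ZNF565, ZNF420, ZNF575, ZNF112, ZNF331, ZNF444, ZNF749, ZNF550 and ZNF324B. The reverse was seen at ZNF701, ZNF544 and ZNF329, which had both marks at an end and neither at the start site. ZNF544 ends beside the start of ZNF8, whose H3K4me3 interval it shares. In 62 genes no peak of either mark lay at an end or anywhere in the record.

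The marked ZNF genes had H3K4me3 peaks about as strong as other genes, and H3K27ac peaks with a lower median fold and width. The fold is the authors' enrichment at the summit of the strongest peak at an end and is compared only within a mark. The median H3K4me3 fold was 61.8 (interquartile range 51.1 to 71.5) over the 165 ZNF genes and 63.0 (47.8 to 75.1) over all marked genes. For H3K27ac the medians were 19.7 (15.1 to 26.1) and 22.95 (15.1 to 30.4), and 57 of 161 ZNF genes lay above the median of all genes. Widths were smaller for both marks, with medians of 2021 bp against 2555 bp for H3K4me3 and 1228 bp against 1818 bp for H3K27ac. ZNF genes of other chromosomes had medians of 62.8 and 24.2 for the folds. The other protein-coding genes inside the clusters, which include zinc finger genes under other symbols, had values close to those of the ZNF genes. Their median folds were 58.1 for H3K4me3 (34 genes) and 18.7 for H3K27ac (37 genes), and their median widths were 2067 and 1271 bp. The fragments stacked at the summit numbered 12 to 298 for H3K4me3 (median 236) and 14 to 191 for H3K27ac (median 96).

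**Figure D1:**
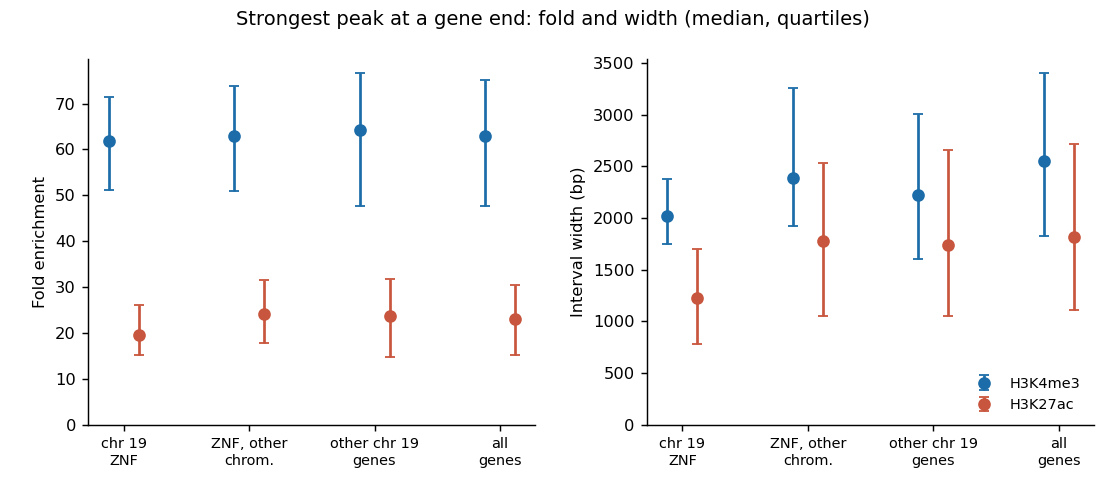
Fold enrichment (left) and interval width in bp (right) of the strongest peak at a gene end, as medians with quartiles, for chromosome 19 ZNF genes and 3 other gene sets. The H3K4me3 folds overlap closely, with medians of 61.8 for the ZNF genes and 63.0 for all genes, while the H3K27ac widths of the ZNF genes sit lower, at 1228 bp against 1818 bp.

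The strongest H3K4me3 peaks belonged to 3 genes of the cluster from ZNF628 to ZNF835. ZNF579 had a fold of 102 from 298 fragments (exact Poisson interval 265 to 334). ZNF581 and ZNF580 share an interval of 4898 bp with 297 fragments, also at a fold of 102, and an H3K27ac interval of 4658 bp at 39.1. ZNF134 followed at 97.2, and ZNF490 and ZNF791, which share a promoter, at 92.7. H3K27ac was highest at ZNF787 (43.4, 164 fragments, 140 to 191), ZNF579 (40.0), the ZNF581 and ZNF580 interval, and ZNF460 (37.9).

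The weakest H3K4me3 peaks were those of ZNF878 (fold 4.21, 12 fragments, 6.20 to 21.0), ZNF730 (6.50 at the record end, 39.7 at the start site), ZNF155 (8.48), ZNF284 (20.5, 59 fragments, 44.9 to 76.1) and ZNF254 (31.0). The weakest and strongest genes were picked by fold, which follows from the fragments, so the distance between their fragment intervals is no separate result. For H3K27ac the lowest folds were ZNF844 (3.95, 14 fragments), ZNF701 (6.27), ZNF284 (6.44), ZNF417 (6.69) and ZNF571 (7.39). ZNF844, next to ZNF878 on the chromosome, had no H3K4me3 peak. Its H3K27ac peak (chr19:12080278-12080678) lay at the 3′ end of the record, and its start site had neither mark. ZNF536, a gene of neural development outside the clusters, had H3K4me3 at 35.6 and no H3K27ac peak in its record. ZNF225 had H3K4me3 at 52.4 at an end and gained H3K27ac, at 10.7, once the start site was read.

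The marks sat just inside the transcribed side of the start. The H3K4me3 summit lay a median of 271 bp downstream of the start in the 157 genes with both marks, and downstream in 93.6% of them, against 83.1% of all such genes. The H3K27ac summit lay a median of 172 bp downstream, and downstream in 75.2%, against 70.6%. In 157 of the 160 genes with both marks at the ends the strongest intervals overlapped. The H3K4me3 interval was the wider in 153 of the 160 and enclosed the H3K27ac interval in 129. These counts were not made for all genes, so they are not shown to be particular to ZNF genes. Over all marked genes, too, the median width was larger for H3K4me3 (2555 bp) than for H3K27ac (1818 bp).

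Runs of at least 5 ZNF genes with gaps of at most 500 kb between neighbours formed 10 clusters that held 232 genes. The other 14 genes stood alone or in small groups, and 12 of these had both marks, with ZNF557 (84.1 for H3K4me3 and 33.4 for H3K27ac) and ZNF296 (84.0 and 30.0) the highest. Of the scattered genes ZNF541 had no mark.

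**Figure D2:**
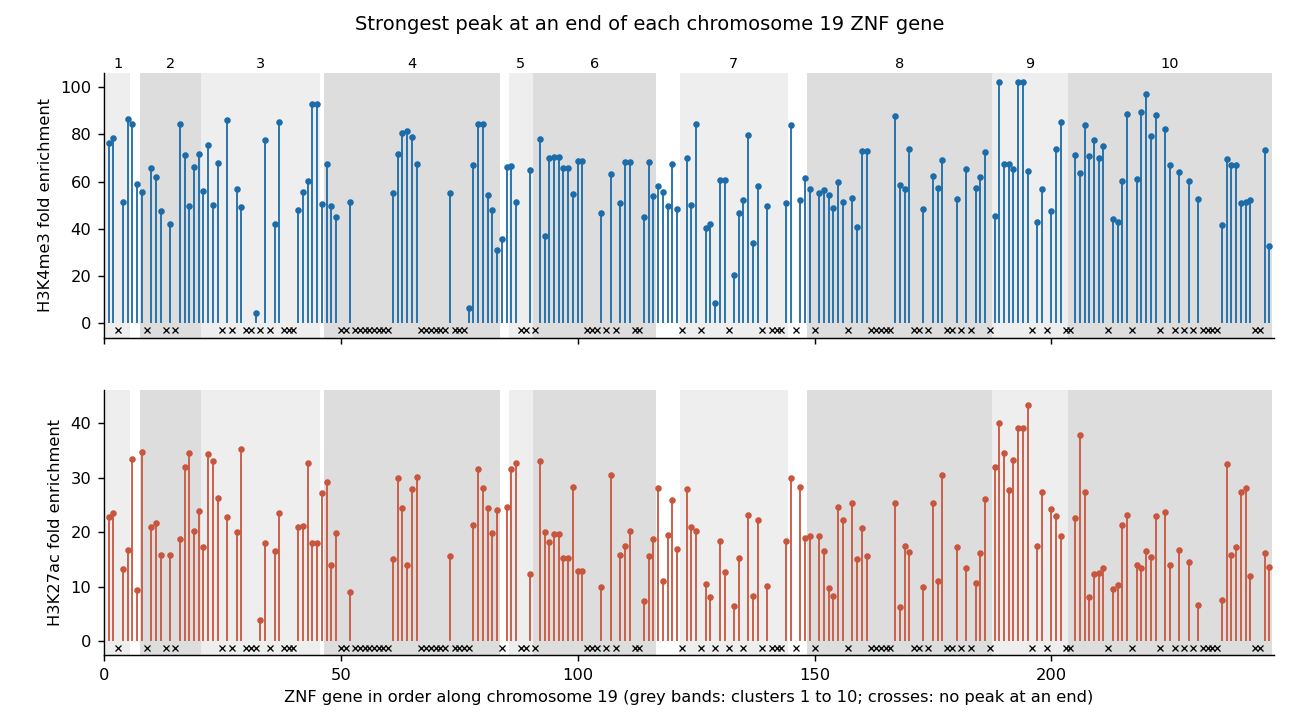
Fold enrichment of the strongest H3K4me3 (upper) and H3K27ac (lower) peak at an end of each of the 246 ZNF genes, in order along chromosome 19, with clusters 1 to 10 as grey bands and crosses for genes without a peak. Unmarked genes lie between marked genes in every cluster, and the longest row of crosses lies in cluster 4, from ZNF101 to ZNF254.

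The cluster from ZNF101 to ZNF254 (chr19:19668153-24129968) had the lowest share of marked genes. Both marks lay at an end of 17 of its 37 genes, 45.9% (31.0 to 61.6), and at the start site of 16 of 29 matched. It was also the emptiest, with 6.95 H3K4me3 and 9.64 H3K27ac peaks per Mb, against 38.1 and 83.2 over chromosome 19. Genes were sparser there too, with 37 ZNF genes and 2 others in 4.46 Mb, against 246 and 1205 in 58.5 Mb of the chromosome. Unmarked genes stood in blocks. After ZNF101 (67.4 and 29.2, in the order H3K4me3 and H3K27ac used from here on), ZNF14 (49.5 and 14.01) and ZNF506 (45.2 and 19.8) came ZNF253 and ZNF93 without marks, and then ZNF682 with 51.1 and 8.97. ZNF93 encodes a repressor of LINE-1 elements.

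The longest block without a mark at an end or a start site covered 8 genes over 1047 kb: ZNF90, ZNF486, ZNF737, ZNF626, ZNF66, ZNF85, ZNF430 and ZNF714. It was followed by 6 marked genes, ZNF431 (55.2 and 15.1), ZNF708 (71.6 and 30.0), ZNF738 (80.4 and 24.5), ZNF493 (81.2 and 13.95), ZNF429 (78.7 and 27.9) and ZNF100 (67.4 and 30.2). The next 6 genes, ZNF43, ZNF208, ZNF257, ZNF676, ZNF729 and ZNF98, had no mark over 617 kb. ZNF492 (55.2 and 15.6) stood between that block and the unmarked ZNF99, ZNF723 and ZNF728. From ZNF730 to ZNF254 all 7 genes were marked. They included ZNF91 (chr19:23305004-23395471), a repressor of SVA retrotransposons, with 84.2 and 31.6, the highest H3K27ac fold of the cluster, and ZNF675 with 84.2 and 28.2.

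**Figure D3:**
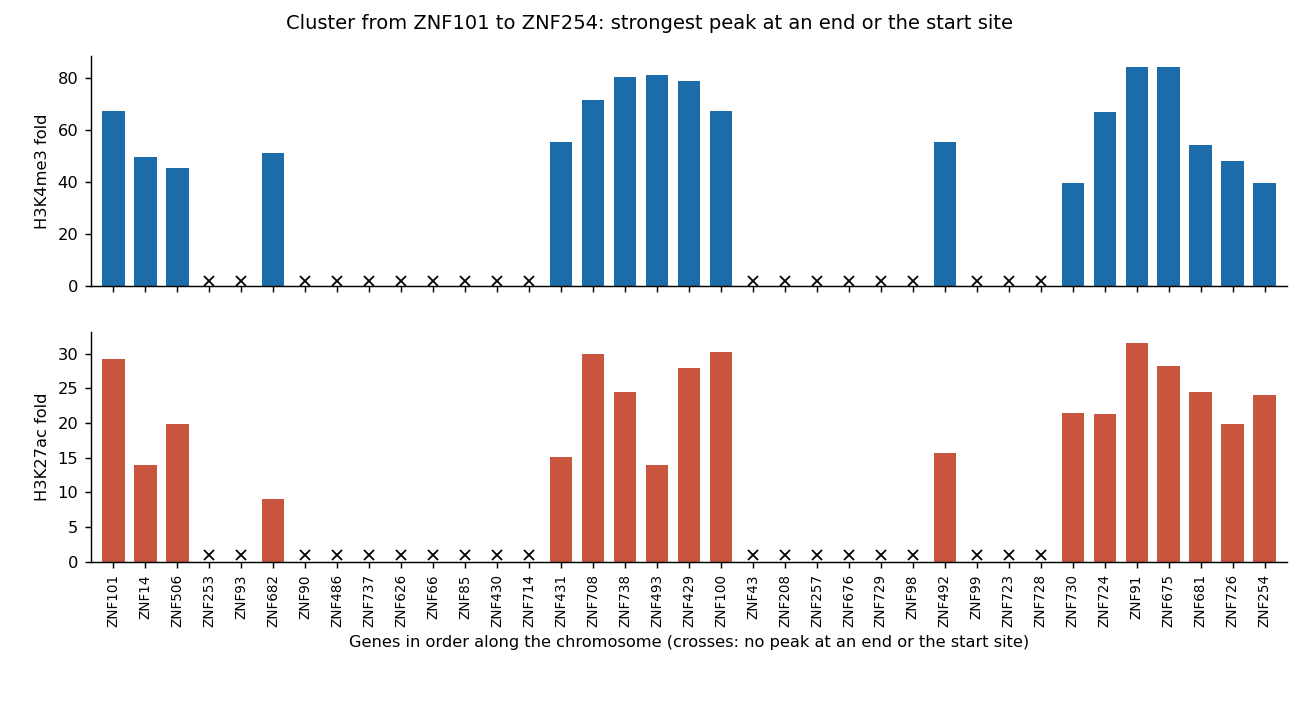
Highest fold of H3K4me3 (upper) and H3K27ac (lower) at an end or the start site of each of the 37 genes from ZNF101 to ZNF254, in chromosome order, with crosses where no peak was found. Unmarked genes form blocks of 8, 6 and 3, and the 7 genes from ZNF730 to ZNF254 all carry both marks.

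The other large clusters were mixed. The cluster from ZNF264 to ZNF446 (chr19:57191500-58489533) had both marks at 30 of 43 genes, 69.8% (54.9 to 81.4), with ZNF134 (97.2) and ZNF530 (89.3) highest for H3K4me3 and ZNF460 (37.9) and ZNF274 (32.5) for H3K27ac. ZNF274 recruits SETDB1 to the 3′ ends of other zinc finger genes, and its own folds were 69.3 and 32.5. A run of 18 genes, ZNF805 to ZNF551, carried a mark at an end or the start site without a break. Further along ZNF418, ZNF256, ZNF606 and ZNF135 formed an unmarked block of 148 kb. The 13 genes without a mark at an end included ZNF324B, ZNF814, ZNF264, ZNF606 and ZNF550 as the longest, of which ZNF324B and ZNF550 were marked at their start sites.

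In the cluster from ZNF175 to ZNF331 (chr19:51571283-53580269), 24 of 39 genes had both marks, 61.5% (45.9 to 75.1). ZNF808, a gene needed for pancreas development, had 87.9 and 25.3, and ZNF611 followed with 73.9 for H3K4me3. ZNF160 was highest for H3K27ac with 30.5, then ZNF813 with 26.1. ZNF610, ZNF880, ZNF528, ZNF534 and ZNF578 formed an unmarked block of 187 kb directly before ZNF808. Of the 15 genes without a mark at an end, ZNF577, ZNF331, ZNF600, ZNF578 and ZNF320 were the longest, and the imprinted ZNF331 had 44.5 and 9.22 at its start site. ZNF577 had peaks only inside its record (5.47 and 8.16).

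In the cluster from ZNF565 to ZNF573, 18 of 26 genes had both marks, led by ZNF146 (78.1 and 33.0), whose protein has zinc fingers without KRAB. ZNF529 (70.5 for H3K4me3) and ZNF383 (30.5 for H3K27ac) came next, and ZNF790 had the widest H3K4me3 interval (3335 bp). ZNF829, ZNF568, ZNF585B, ZNF875, ZNF793 and ZNF540 had no mark at an end or the start site. Of these, ZNF875 had peaks inside its record (51.3 and 9.78), and the record of ZNF540 held those of ZNF571 (44.8 and 7.39).

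The cluster from ZNF653 to ZNF791 had both marks at 15 of 25 genes by the ends and 18 of 24 by start sites, since ZNF563 (54.1 and 19.6), ZNF442 (83.1 and 26.99) and ZNF799 (77.3 and 22.9) begin inside their records. ZNF700 (35.3) and ZNF627 (34.4) had its highest H3K27ac folds. ZNF491, ZNF439, ZNF763, ZNF433 and ZNF625 had no mark. The cluster from ZNF575 to ZNF180 had both at 14 of 23 genes, with ZNF283 (84.2) and ZNF234 (79.9) highest for H3K4me3 and ZNF576 (27.9) and ZNF234 (23.2) for H3K27ac. There ZNF404, ZNF223, ZNF233, ZNF285 and ZNF229 had none at an end or a matched start site.

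The cluster from ZNF628 to ZNF835 had both marks at 13 of 16 genes, 81.2% (57.0 to 93.4), and the highest median H3K27ac fold of the 10 clusters, 32.0, beside 19.7 over all ZNF genes. ZNF667 and ZNF835 were unmarked. ZNF414 to ZNF846 had both at 10 of 13, with ZNF426 (84.5), ZNF846 (71.5), ZNF414 (34.7 for H3K27ac) and ZNF561 (34.5) highest and ZNF177 and ZNF560 unmarked. In ZNF554 to ZNF77, 4 of 5 genes had both, led by ZNF77 (86.6) and ZNF555 (78.5 and 23.6), and ZNF556 had none. In ZNF302 to ZNF792, 3 of 5 had both, with ZNF302 at 66.6 and ZNF181 at 32.7 for H3K27ac. ZNF599 there was marked at its start site, and ZNF30 had peaks only inside its record (57.8 and 16.0). The Wilson intervals of the clusters overlapped one another.

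**Figure D4:**
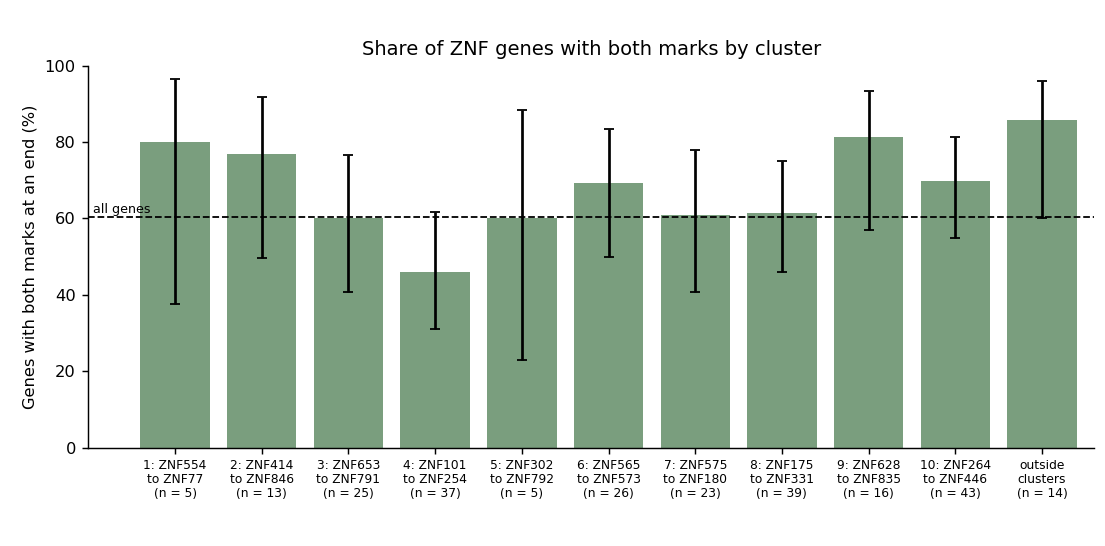
Share (percent) of ZNF genes with both marks at an end in each cluster and outside the clusters, with 95% Wilson intervals, beside the 60.4% of all protein-coding genes (dashed line). The ZNF101 to ZNF254 cluster is lowest at 45.9% and the ZNF628 to ZNF835 cluster highest among the clusters at 81.2%.

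Most unmarked runs were single genes. Read at ends and start sites together, the clusters held 37 unmarked runs, of which 25 were a single gene and 5 held at least 3 genes, 26 genes in all. Among 222 neighbouring pairs, 122 were both marked, 28 both unmarked and 72 differed. Runs and pairs were not counted in other gene sets. Whether they differ from those of a random order with the same share of marked genes was not tested. The other protein-coding genes inside the clusters had both marks at an end in 33 of 91 cases, 36.3% (27.1 to 46.5), below the interval of the ZNF genes. They include zinc finger genes under other symbols, such as ZFP30 and ZIK1, so this does not compare zinc finger genes with other families. Chromosome 19 zinc finger genes under other symbols, some of them in that set, had both marks in 6 of the 17 measured, among them ZFP14 and ZBTB7A. The imprinted PEG3 and ZIM2, and also ZIM3, ZIK1, ZFP82, ZSCAN1, ZSCAN5A, ZSCAN5B and ZSCAN18, had neither at an end. Of these, ZSCAN5A (32.3 and 16.9) and ZSCAN18 (28.0 and 4.70) had peaks of both marks inside their records.

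Head-to-head genes were read in windows that overlap, so shared intervals and states follow largely from the reading. In 7 pairs of ZNF genes the start sites faced away from each other within 1 kb, and 6 pairs had both marks on both genes: ZNF490 and ZNF791, ZNF565 and ZNF146, ZNF529 and ZNF382, ZNF461 and ZNF567, ZNF790 and ZNF345, and ZNF569 and ZNF570. All 6 shared their H3K27ac interval, and 5 shared the H3K4me3 interval. The starts of the 7 pairs lay 22 to 328 bp apart, and marks were read within 1 kb of each start. ZNF829 and ZNF568, whose starts are 41 bp apart, had neither mark. Counting pairs with genes of any family, 16 of 19 ZNF genes in such a pair had both marks at the start site (84.2%, 62.4 to 94.5). Of 197 others, 141 did (71.6%, 64.9 to 77.4), and the intervals overlapped. Both ZNF genes of a pair can count the same peak, so the 19 are not independent.

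Among all protein-coding genes, promoters without the marks were poor in CpG dinucleotides. The unmarked ZNF promoters were not as poor. Over the 300-base RefSeq promoters, from 250 bases before to 50 after the start, the median ratio of observed to expected CpG was 0.679 in the 57 ZNF genes with neither mark at the start site and 0.293 in all 4833 such genes. With a ratio of at least 0.6 and a GC content of at least 50% taken as CpG-rich, 66.7% of the unmarked ZNF promoters were CpG-rich, against 21.6% of all unmarked promoters. ZNF genes of other chromosomes lay between, with a median ratio of 0.592 and 43.2% CpG-rich among their 44 unmarked promoters. Of the 166 CpG-rich ZNF promoters 76.5% (69.5 to 82.3) had both marks, against 81.8% of all CpG-rich promoters. Of the 50 other ZNF promoters 60.0% (46.2 to 72.4) had both, against 26.2% of all and 43.5% (30.2 to 57.8) of the 46 such promoters of ZNF genes on other chromosomes.

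Outside the ZNF101 to ZNF254 cluster the CpG ratio of ZNF promoters with and without the marks was nearly the same, with medians of 0.798 (141 genes) and 0.796 (44 genes). Unmarked promoters with many CpGs included ZNF528 (1.13), ZNF541 (1.06), ZNF135 (1.04), ZNF667 (1.03), ZNF577 (1.01) and ZNF677 (0.940). Within that cluster the CpG ratios were lower, from 0.333 to 0.723, with medians of 0.480 in 16 marked and 0.414 in 13 unmarked genes. There all 4 CpG-rich promoters carried both marks, and 12 of the 25 others did. DNA methylation was not measured here.

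**Figure D5:**
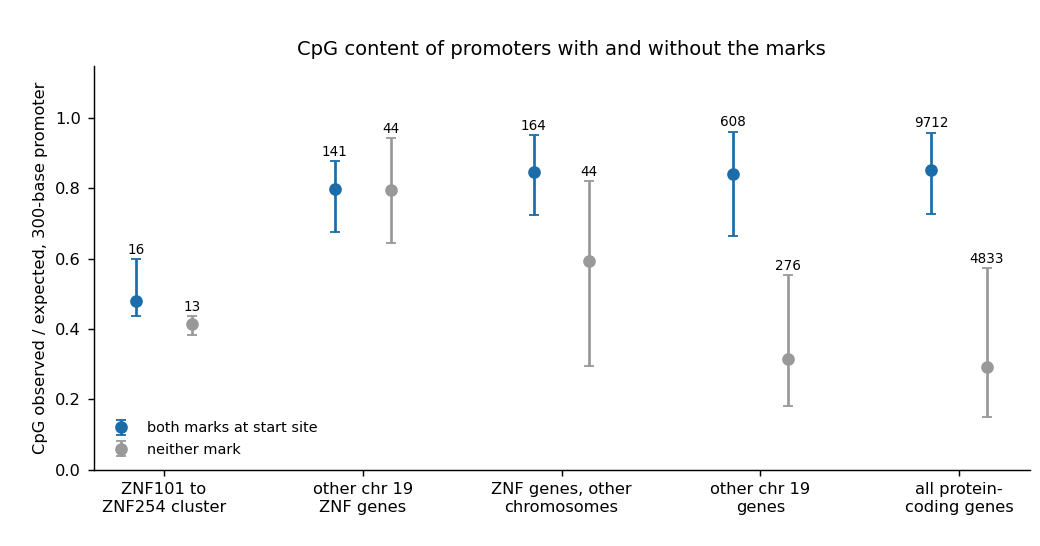
Ratio of observed to expected CpG in the 300-base promoters (medians with quartiles) for genes with both marks or neither mark at the start site, in 5 gene sets, with the number of genes above each point. Marked and unmarked promoters part widely among all genes (0.853 and 0.293) and coincide among chromosome 19 ZNF genes outside the ZNF101 to ZNF254 cluster (0.798 and 0.796).

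ZNF154 shows an unmarked gene between marked neighbours. The 120 bases before the start are given for ZNF551 (chr19:57681857-57681976, plus strand, 88.3 and 22.9), ZNF154 (chr19:57709205-57709324, minus, no mark) and ZNF671 (chr19:57727625-57727744, minus, 82.0 and 23.7), with each CpG in capitals.
ZNF551: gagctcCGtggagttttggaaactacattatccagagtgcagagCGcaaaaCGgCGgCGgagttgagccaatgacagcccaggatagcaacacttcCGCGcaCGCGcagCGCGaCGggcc
ZNF154: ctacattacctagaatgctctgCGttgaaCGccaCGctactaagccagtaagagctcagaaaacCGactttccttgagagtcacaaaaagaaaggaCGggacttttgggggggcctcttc
ZNF671: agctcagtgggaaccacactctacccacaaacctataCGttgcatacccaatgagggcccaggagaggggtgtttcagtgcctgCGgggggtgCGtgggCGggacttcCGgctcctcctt
ZNF154 and the marked ZNF671 both held 5 CpGs in this stretch, and ZNF551 held 12. Over the full 300 bases the CpG ratios were 0.904 for ZNF551, 0.657 for ZNF154 and 0.503 for ZNF671.

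Promoter likeness was high in the ZNF101 to ZNF254 cluster. The median identity over its 406 promoter pairs was 78.7%, against 59.0% between promoters of different clusters, and 299 of the 406 pairs reached 70%. ZNF714 and ZNF431, neighbours printed above, were identical at 273 of 300 bases (91.0%). ZNF714 had neither mark and 10 CpGs, and ZNF431 had 55.2 and 15.1 with 14 CpGs. The ETS core was absent from the printed stretch of ZNF93, ZNF90 and ZNF714 and present in that of ZNF430, ZNF431, ZNF100 and ZNF91, so it was found both in an unmarked gene and in marked genes. Over the whole cluster the 300-base promoters held it in 9 of 13 unmarked genes and 12 of 16 marked genes. In the cluster from ZNF653 to ZNF791, the unmarked ZNF439 and the marked ZNF69 (56.9 and 20.0) were 86.3% identical, and here the unmarked gene had more CpGs, 12 against 8. ZNF525, unmarked, was 81.7% identical to ZNF845 (65.5 and 13.3) and to ZNF765 (57.3 and 10.6) on either side of it.

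How well reads can be placed in such copies was approached by counting 36-base words of a promoter that recur at another promoter. In the ZNF101 to ZNF254 cluster the median share of recurring words was 0.377% in marked and 3.77% in unmarked promoters, with a maximum of 10.2%. Elsewhere the median was 0% in both states, with maxima of 16.2% in marked and 14.3% in unmarked promoters. The mapping of reads in these libraries, and its part in the unmarked calls, was not tested.

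Motif letters were counted on both strands of the same 300-base promoters. The ETS core CCGGAAG lay in 45.4% of 216 ZNF promoters, against 14.2% of all promoters. It lay in 43.3% of marked and 52.6% of unmarked ZNF promoters, while among all genes it lay in 20.7% and 3.79%. CCAAT lay in 53.7% of ZNF promoters against 36.3% of all, and in all 29 promoters of the ZNF101 to ZNF254 cluster, 72.4% of which had at least 2 copies. CCAAT and the ETS core came together in 27.3% of ZNF promoters against 4.84% of all. The pair lay in 72.4% of promoters of the ZNF101 to ZNF254 cluster and in 20.3% of the other ZNF promoters. The TATA box letters TATAAA were found in 1.85% against 9.64%. Other letters lay nearer the share of all promoters: GGGCGG (GC box) in 67.6% against 58.5%, ATGGCGG (YY1) in 8.80% against 7.63% and CGCATGC (NRF1) in 5.09% against 5.14%. CTCGCGA (ZBTB33) lay in 1.85% against 3.25%, and ACAATTC (ZNF143) in 5.09% against 1.98%. ZNF genes of other chromosomes also differed from all promoters, with the ETS core in 34.1% of 214, CCAAT in 43.5%, the pair in 16.4% and TATAAA in 4.21%. These are matches of letters, and no factor binding was measured.

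The 13 ZNF genes with known roles included marked and unmarked genes. Beside ZNF91, ZNF93, ZNF274, ZNF331, ZNF808 and ZNF146 above, ZNF350, a partner of BRCA1, had 54.3 and 9.66, and ZNF382 had 70.5 and 19.7. ZNF224, which binds WT1, had 46.7 and 15.2. ZNF417 (52.5 and 6.69) and ZNF587 (60.2 and 14.5), which bind HERV-K, lie in the same cluster and both carried both marks. ZNF587B and ZNF814 next to them had none.

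The genes for the proteins that KRAB zinc fingers work with were marked almost throughout. Of 24 examined, 23 had both marks at an end, 95.8%, beside 60.4% of all protein-coding genes. At start sites, 81.8% of all CpG-rich promoters had both. The 24 genes are a chosen list without a matched set beside it. Whether their share is particular to partners of KRAB was not tested. They included TRIM28, the KRAB corepressor (53.4 and 28.3), SETDB1, the H3K9 methyltransferase (60.3 and 31.8), and CBX3, which encodes HP1 gamma (80.3 and 50.003). UHRF1 had H3K27ac alone at an end (3.16) and both marks at its start site (48.7 and 20.7).

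The authors' deposited table of super-enhancers, long regions of joined H3K27ac peaks, lists 28 on chromosome 19, and 0 of these overlapped a ZNF gene or the span of a cluster. The share of all genes that overlap such a region was not counted, so the 0 is not shown to be particular to ZNF genes. The authors' deposited table assigns 1 region to a ZNF gene, ZNF175, whose record begins 2.99 kb beyond it. In the authors' deposited table that region, chr19:51541470-51568290, ranks 314. It is 26.8 kb long, with an H3K27ac signal 9.14 times that of the input.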

How the data were processed

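The authors deposited 1 peak list per mark and a super-enhancer table. The submitters' processing notes name Bowtie2 (2.3.4), bedtools (2.20.1) and build hg38. Not given in the sources used here are the caller of the peaks, the total reads per library and the scaling of the super-enhancer signal. The deposited lists hold 36951 H3K4me3 and 96659 H3K27ac peaks (autosomes and X), each with a fold ratio at its summit, a −log10 p, a −log10 q and a score that follows from the −log10 q. The deposited super-enhancer table gives an H3K27ac signal and an input signal per region, and input values were read only there. Whether the authors also used the input library to call the peaks and compute their folds is unknown.

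A gene was marked when a peak overlapped, by at least 1 bp, the 1 kb either side of a gene end or of the RefSeq start site. RefSeq GRCh38.p14 gave gene records for all 246 genes and promoters for 216; those promoters supplied strand and start. Fragments at a summit were solved from fold and −log10 p (whole numbers for all 326 strongest peaks, tolerance 0.01). Promoters were aligned globally (match 1, mismatch -1, gap opening -2, extension -0.5). Shares have 95% Wilson intervals and fragments exact Poisson intervals, for counting error only; duplicated neighbours are not independent. Python 3.11.15, pandas 2.3.3, SciPy 1.17.1 and Biopython 1.88 were used, and the interval and fragment code was tested on simulated data.

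The genes and lists were chosen with earlier results of these data known. Motifs, the CpG-rich limits and the printed promoters were chosen after the values were seen, as were ZNF528, ZNF541, ZNF135, ZNF667, ZNF577 and ZNF677 as CpG examples and the pairs of like promoters. The other named genes are, per cluster, the 2 highest folds of each mark, the widest H3K4me3 interval, the unmarked genes (5 longest where over 10), the extremes over all genes, single-mark genes, shared intervals and genes of known role. Alternatives varied the window, the place read, the fold limit and the cluster gap. Protein sequences were not analysed here.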

Additional observations from a re-analysis of the deposited data

How the results depend on the processing

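Of 43 alternative values, 35 stayed within the main interval and 8 moved. With the start site only (216 genes), H3K4me3 was at 73.6%, H3K27ac at 72.7%, both at 72.7% and neither at 26.4%. The same 216 genes read at their ends, an alternative chosen after seeing the data, had both at 66.7% and neither at 31.0%. With a peak anywhere in the gene record or its windows, the shares were 74.4%, 73.6%, 73.2% and 25.2%, beside 73.6%, 69.98%, 67.3% and 23.8% of all genes. Windows of 500 bp and 2 kb, summits only, or the top 50% of each list by fold left both marks at 62.2% to 66.7%. All genes had 59.0%, 62.3%, 55.2% and 57.9% under these settings, the last 2 below the interval of the ZNF genes. The ZNF101 to ZNF254 cluster stayed lowest at 45.9% with gaps of 1000 kb and with the top 50%. Gaps of 250 kb split it, and ZNF737 to ZNF91 was lowest, with both marks at 9 of 25 genes. No paired analysis was possible because each mark has 1 library. Without replicates the spread between cultures is unknown, and a gene without a peak may carry a mark too weak for the depth of its library.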
